A study of Mus musculus with 4 samples.

Results

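Chemokines are small secreted proteins that direct the migration of leukocytes, and their receptors are G protein-coupled receptors on the responding cell. The genes described here are the 55 protein-coding genes of mouse chromosomes 1 to 19 whose symbols mark them as a chemokine or a chemokine receptor: 17 receptors (the Ccr, Cxcr, Cx3cr1 and Xcr1 genes) and 38 ligands (the Ccl, Cxcl, Cx3cl1 and Xcl1 genes). They were chosen by symbol alone, out of 20558 coding genes placed on those chromosomes in the NCBI RefSeq gene table of GRCm38.p6. Cxcr3 lies on chromosome X and was outside the rule, and Ccl21c, listed at position 59769 of chromosome 4 although the lowest placed gene there starts at 3103699, was taken to lie on an unplaced scaffold and left out. Neither list had a summit within 20 kb of Cxcr3. For Ccl21c no count can be given, since its listed position was not taken as one on chromosome 4. Ccr1l1, whose symbol ends in a letter and a number, was not a member.

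Positions of KAP1, the corepressor encoded by Trim28, were mapped by ChIP-seq, the sequencing of DNA precipitated with the protein, in regulatory T cells from the spleen of C57BL/6 mice, sorted and then kept in culture for 2 weeks. There are 2 samples precipitated with the KAP1 antibody 1Tb-A9 and 2 input samples made without antibody, which were not analysed here. Each KAP1 sample has 1 list of summits, the points of highest enrichment within called peaks, with 8862 summits in replicate 1 and 79515 in replicate 2, and no depth of reads can be given for them. The labels give no sorting gate and do not say whether the replicates were separate cultures or animals. A summit list holds no expression levels, so neither the identity of the cells nor the expression of any member could be read from it.

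KAP1 is known for being brought to DNA by KRAB zinc finger proteins and for recruiting chromatin-silencing enzymes, and it also lies at many active promoters. Regulatory T cells use receptors such as Ccr4, Ccr7 and Ccr8 to reach lymph nodes, skin and inflamed tissue, and most of the ligands they follow are made by other cells. A summit of replicate 1 with a replicate 2 summit within 200 bp is called shared below, and each position is that of replicate 1. The lists held 7641 shared summits on the 19 numbered chromosomes. Each summit carries the authors' score, a −log10 of p-values or q-values, which is used only to rank or describe summits within a list. A percentile is the place of a score within its own list. With 1 group of 2 samples, and with the genes chosen while earlier results of these data were known, every count below is a description and no test was made.

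Shared KAP1 summits lay around 9 of the 17 receptors and around 5 of the 38 ligands. In the gene or within 20 kb of it, 9 of 17 receptors had a shared summit (52.9%, Wilson 95% interval 31.0 to 73.8%), against 5 of 38 ligands (13.2%, 5.75 to 27.3%) and 34.4% of all coding genes, a share inside the interval of the receptors and above that of the ligands. The receptors were Ccr4, Ccr8, Cx3cr1, Ccr10, Cxcr5, Cxcr6, Ccr7, Cxcr4 and Ccr1, and the ligands were Cxcl10, Cxcl17, Ccl1, Ccl17 and Ccl5. The replicate 1 list alone gave the same counts of 9 receptors and 5 ligands, against 36.1% of all coding genes. With all replicate 2 summits the groups came together, at 12 of 17 receptors (70.6%, 46.9 to 86.7%) and 26 of 38 ligands (68.4%, 52.5 to 80.9%). The 84.8% of all coding genes was inside the interval of the receptors and above that of the ligands. With replicate 2 held to as many of its highest scores as replicate 1 has summits, 5 receptors (29.4%) and 2 ligands (5.26%) had a shared summit, against 18.8% of all coding genes. In windows of 10 kb the receptors stood near the background, at 5 of 17 (29.4%), and the ligands at 4 of 38 (10.5%), against 27.5% of all coding genes. These intervals cover counting error only, and neighbouring members share windows, so genes are not independent observations.

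At gene ends and in gene bodies the counts of members with a shared summit were small. Within 1 kb of either end of the gene, 1 of 17 receptors (Ccr10) and 1 of 38 ligands (Cxcl17) had a shared summit, against 8.99% of all coding genes. This background was inside the interval of the receptors (5.88%, 1.05 to 27.0%) and that of the ligands (2.63%, 0.466 to 13.5%). In replicate 1 alone the counts were again 1 and 1, against 9.89%. In replicate 2 they were 3 receptors (Ccr10, Cxcr5 and Ccr1) and 2 ligands (Cxcl17 and Cxcl9), against 23.4%. This share was inside the interval of the receptors (6.19 to 41.0%) and above that of the ligands (1.46 to 17.3%). In the body, which is the gene without 1 kb at each end, 2 of 17 receptors (Ccr4 and Cxcr5) and 0 of the 28 ligands long enough to have one held a shared summit, against 13.0% of all coding genes. For replicate 1 alone these were also 2 and 0, against 13.9%, and for replicate 2 they were 4 receptors and 5 ligands, against 56.7%. Members are short, with a median length of 7253 bp for receptors and 4004.5 bp for ligands, against 17578.5 bp for all coding genes. Among coding genes in the length range of the receptors (2446 to 22479 bp), 5.89% held a shared summit in the body, and the 2 of 17 receptors stand at 11.8% (3.29 to 34.3%). With replicate 2 this background was 31.7%, inside the interval of the 4 receptors (23.5%, 9.56 to 47.3%). For ligands, 0 of 28 held a shared body summit (0 to 12.1%) and 5 of 28 one of replicate 2 (17.9%, 7.88 to 35.6%), against 10.2% and 49.2% of coding genes in the length range of the ligands (1131 to 83706 bp).

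**Figure D1:**
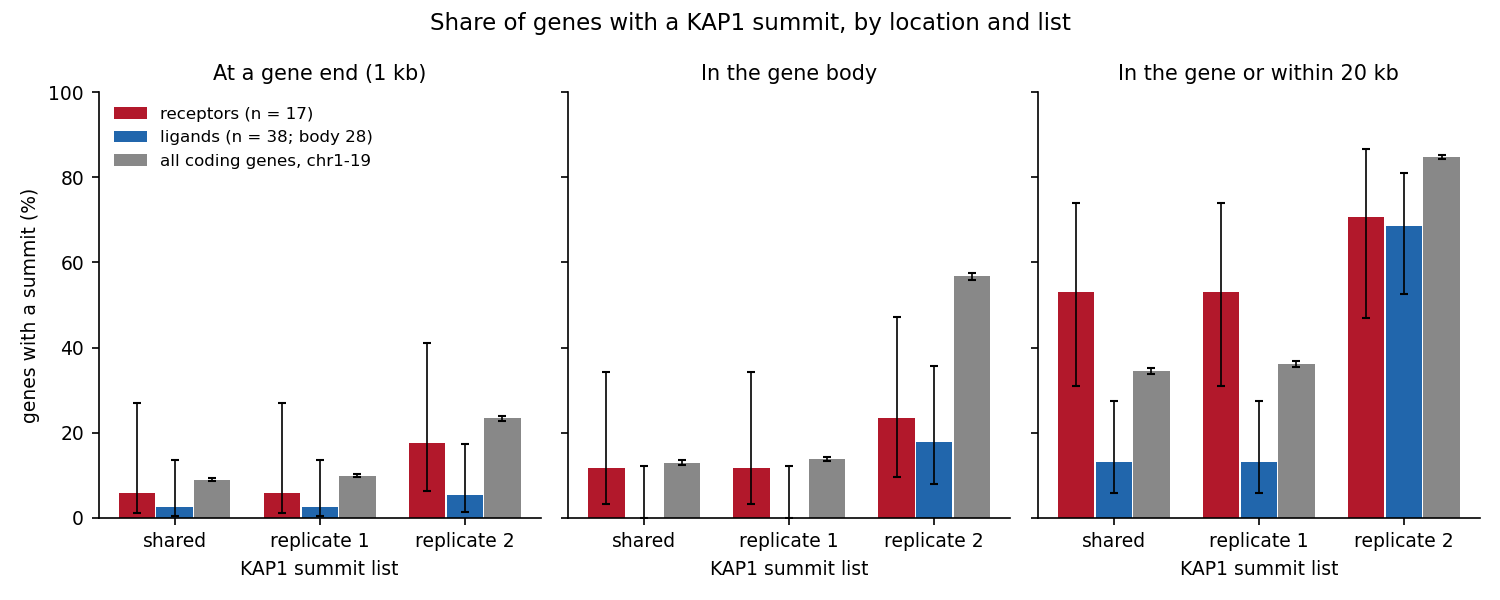
Share of genes (%) with a KAP1 summit at an end, in the body or within 20 kb, for shared, replicate 1 and replicate 2 summits. Bars stand for receptors, ligands and all coding genes of chromosomes 1 to 19, and error bars are Wilson 95% intervals; in the right panel receptors reach 52.9% and ligands 13.2% with shared summits, and 70.6% and 68.4% with replicate 2.

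Ccr4, the receptor for Ccl17 and Ccl22 and a homing receptor of skin-seeking and regulatory T cells, carried the strongest KAP1 site of all members. It lies at position 114496707 of chromosome 9, inside the gene as the table lists it (114490316 to 114505476). Its score was 38.3 in replicate 1 and 57.9 in replicate 2, at percentiles 97.4 and 99.6. The gene is on the minus strand, and the RefSeq promoter entry gives a start in the middle of the listed span, so that the summit falls 163 bases before that start in replicate 1 and 166 bases before it in replicate 2. Counted as a body summit from the gene's outer bounds, it is therefore a promoter summit by this entry. The 250 bases before the listed start (chr9:114496545-114496794, GRCm38.p6, minus strand, RefSeq) are shown because the summit lies inside them, with the 61 bases centred on the replicate 1 summit in capitals:
Ccr4: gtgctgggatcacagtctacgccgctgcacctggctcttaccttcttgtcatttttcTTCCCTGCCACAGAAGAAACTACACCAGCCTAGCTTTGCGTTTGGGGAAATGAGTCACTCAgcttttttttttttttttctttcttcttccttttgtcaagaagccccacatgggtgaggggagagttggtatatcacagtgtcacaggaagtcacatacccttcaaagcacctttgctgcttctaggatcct

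The capitals hold TGAGTCA, the consensus site of AP-1 factors, which begins 20 bases after the replicate 1 summit. The motif was searched for after this sequence had been seen, as those letters on both strands of the 300-base promoter windows (250 bases before to 50 after each listed start). It occurred in 2 of the 13 receptors with such a window (Ccr3 and Ccr4), in 5 of 28 ligands (Ccl27a, Ccl27b, Ccl28, Cxcl9 and Cxcl10) and in 5.46% of 16457 coding genes. Ccl27a and Ccl27b have 3 and 4 listed starts and lie in a region of near-identical gene copies, so their matches may not be separate. A match is a description of the letters and not of a bound site. Of the members with a listed start, 1 of 13 receptors (Ccr4) and 0 of 28 ligands had a shared summit within 1 kb of it, against 8.57% of coding genes with a listed start. The same was so with replicate 1 alone (1 and 0, against 9.52%) and with replicate 2 alone (1 and 0, against 18.2%).

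Around Ccr4 lay 2 further shared summits. The one at position 114498171, also upstream of the listed start, was 7305 bp inside the higher end and scored 8.34 in replicate 1 and 5.21 in replicate 2. The one at 114485482 was 4834 bp below the lower end, past the 3′ side of the gene, with scores of 5.79 and 13.9. In addition, 5 summits of replicate 2 alone lay within 20 kb, the strongest of them 1439 bp below the lower end (score 27.5). With 8 replicate 2 summits in a window of 55.2 kb, or 14.5 per 100 kb, Ccr4 had the densest replicate 2 sites of the 9 receptor loci.

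Ccr8, the receptor for Ccl1 and a marker of regulatory T cells in tissues, and Cx3cr1, the receptor for the membrane-bound ligand Cx3cl1, are neighbours on chromosome 9 that point away from each other. The site with the second highest mean percentile of all members lay between them at position 120080331, scoring 22.2 in replicate 1 and 28.8 in replicate 2 (percentiles 90.4 and 97.9). It was 11802 bp before the listed start of Ccr8 and 12035 bp before that of Cx3cr1, so it counts for both. A weaker shared summit at 120074258 (3.45 and 6.88) lay 5962 bp before Cx3cr1 and 17875 bp before Ccr8. Cx3cr1 had another at 120030695, 17988 bp below its lower end, with scores of 10.7 and 13.8, but the nearest coding gene to it was Xirp1 at 7097 bp. Neither receptor had a shared summit inside the gene.

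Ccr10, the receptor for the skin and mucosal ligands Ccl27 and Ccl28, held a shared summit 943 bp inside its lower end, at position 101173941 of chromosome 11. The scores were 11.9 in replicate 1 and 12.6 in replicate 2. Ccr10 is 2446 bp long and overlaps Cntnap1 in the gene table, and the same summit lay within 1 kb of an end of that gene, so it cannot be given to Ccr10 alone. Cxcr5, the receptor for Cxcl13 that leads cells into B cell follicles, had a shared summit in its body at position 44514565 of chromosome 9, 2778 bp inside the lower end, with scores of 8.65 and 15.3. Replicate 2 added 2 summits at its higher end, 57 bp outside (12.8) and 396 bp inside it (5.43).

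Cxcr6, the receptor for Cxcl16 on tissue-resident T cells, lies wholly within the span of Fyco1, a gene of vesicle transport. Its 1 shared summit, at position 123814606 of chromosome 9, was 2852 bp above its higher end and also inside Fyco1. It stood at percentile 46.0 in replicate 1 (score 7.03) and 99.3 in replicate 2 (score 47.1), where shared summits as a whole have medians of 58.3 and 81.0, and the lists differ in length. No other summit of either list lay within 20 kb of Cxcr6.

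Ccr7, which brings T cells into lymph nodes towards Ccl19 and Ccl21, had shared summits on both sides but none in the gene. On chromosome 11, the summit at 99130957 lay 13242 bp below its lower end (scores 7.25 and 12.3) and the summit at 99170945 lay 15868 bp above its higher end (5.10 and 7.51), the second of these in the noncoding gene Gm32249. Cxcr4, the receptor for Cxcl12, had 2 shared summits before its listed start, 13669 bp away at 128605968 of chromosome 1 (8.34 and 10.6) and 19623 bp away at 128611922 (8.34 and 6.56). Replicate 2 alone had a summit inside Cxcr4, 1022 bases after the start, with a score of 16.6. Ccr1, an inflammatory receptor for Ccl3 and Ccl5, had 1 shared summit 17713 bp before its start (6.16 and 7.49), at an end of the neighbouring receptor-like gene Ccr1l1. These 3 receptors thus had their shared summits only at 13242 bp or more from the gene.

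**Figure D2:**
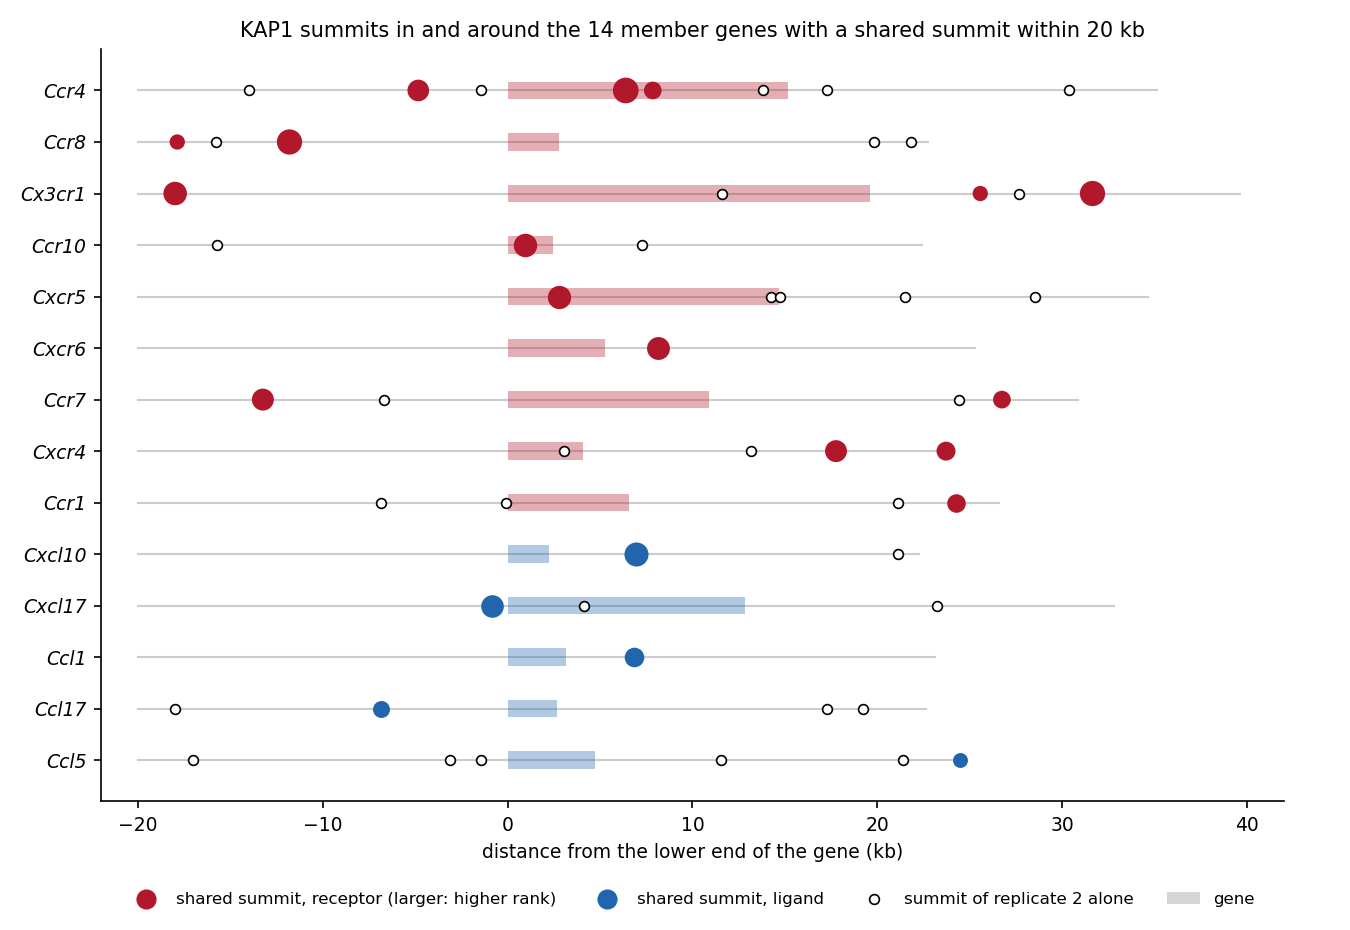
Summits in and around the 14 members with a shared summit within 20 kb, receptors above ligands; the x axis is the distance from the lower end of the gene (kb), pale bars are genes and grey lines the 20 kb windows. Filled points are shared summits, larger for a higher mean percentile of both scores, and open points are summits of replicate 2 alone; the largest point lies inside Ccr4, and the large points by Ccr8 and Cx3cr1 are the same summit.

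The other 8 receptors had no shared summit within 20 kb. Replicate 2 alone had 4 summits near Cxcr1, a neutrophil receptor, 2 near Xcr1, the receptor of cross-presenting dendritic cells, and 1 near Ccr3, the eosinophil receptor for eotaxins. No summit of either list lay near 5 receptors, among them Cxcr2, also a neutrophil receptor, Ccr2, the monocyte receptor for Ccl2, Ccr6, the receptor for Ccl20, and Ccr9, the gut and thymus receptor for Ccl25. For Ccr6 and Ccr9 the nearest shared summits lay beyond the window, at 23901 and 31149 bp. For Ccr2 it was at 115513 bp, and the nearest replicate 2 summit at 61961 bp.

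Of the 17 receptors, 7, among them Ccr9, Cxcr6, Xcr1 and Ccr1, lie in 360 kb of chromosome 9. This cluster had 2 shared summits, those by Cxcr6 and Ccr1, and 8 replicate 2 summits in 299.96 kb of joined windows, or 2.67 per 100 kb. The pair Cx3cr1 and Ccr8 had 3 shared and 7 replicate 2 summits in 86.2 kb, or 8.12 per 100 kb. When members with gaps of 200 kb or less were counted as 1 locus, 7 of 9 receptor loci and 5 of 18 ligand loci had a shared summit. Loci differ in length and were not built for all coding genes, so these counts have no background. Over all joined windows, receptors had 14 distinct shared summits, or 1.803 per 100 kb (Poisson 95% interval 0.986 to 3.02), and ligands had 5, or 0.338 (0.110 to 0.788), against 0.489 around all coding genes. That value was below the interval of the receptors and inside that of the ligands. Windows of all coding genes hold longer genes (median 17578.5 bp, against 7253 bp for receptors), and this density was not set beside genes of like length. By gene, 35.6% of coding genes in the length range of the receptors had a shared summit within 20 kb, against 52.9% of receptors. Replicate 2 had 5.54 summits per 100 kb around receptors (4.01 to 7.46) and 3.38 around ligands (2.51 to 4.45). The value around all coding genes, 4.03, was inside both intervals. These intervals take summits as independent, though Ccr4 and the pair Cx3cr1 and Ccr8 held 3 each of the 14 shared receptor summits.

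None of the 5 ligands with a shared summit held it inside the gene. Cxcl10, an interferon-induced ligand of Cxcr3, had the strongest, 4694 bp before its listed start at position 92353583 of chromosome 5. Its score was 9.69 in replicate 1 and 38.7 in replicate 2 (percentiles 66.8 and 98.8). Cxcl10 lies within the span of Art3, an ADP-ribosyltransferase family gene, and the summit was inside that gene too. Cxcl17, a ligand of mucosal surfaces, had the 1 ligand end summit, at position 25399182 of chromosome 7, 871 bp below its lower end (6.64 and 18.5). This summit was nearer to Lipe, the hormone-sensitive lipase gene, at 696 bp, and it is at an end of both genes.

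Among the ligands of Ccr4 and Ccr8, Ccl1 had a shared summit 3675 bp before its listed start, at 82183487 of chromosome 11 (6.16 and 8.66). Ccl17 had one 6872 bp below its lower end, at 94802508 of chromosome 8, on the same base in both lists (5.10 and 7.06). Ccl22, the other Ccr4 ligand, had no shared summit within 20 kb but 3 of replicate 2 alone, the strongest 10131 bp before its start with a score of 21.0. Ccl5, an inflammatory ligand made by activated T cells, had 1 shared summit at the edge of its window, 19757 bp above the higher end at 83550275 of chromosome 11 (4.17 and 6.49). Replicate 2 alone had 5 more around Ccl5, the strongest 1453 bp below its lower end (19.9).

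Of the 38 ligands, 21 had no shared summit within 20 kb but at least 1 summit of replicate 2 alone. With all replicate 2 summits the count was 26 of 38 (68.4%), against 84.8% of all coding genes. Ccl25, the thymic and intestinal ligand of Ccr9, had 8 summits of replicate 2 alone, 4 in its body, with scores from 3.45 to 11.8. Cx3cl1 had 5, with scores from 7.19 to 13.3, and its nearest shared summit lay just past the window at 20081 bp. Cxcl16, the ligand of Cxcr6, also had 5, of which 1 lay in the gene, 1421 bp inside its higher end, with a score of 19.04. Ccl28 had 1, in its body, with a score of 24.1, and Ccl24, an eotaxin, had the highest such score of the ligands, 34.97 at 16030 bp above its higher end. Xcl1, made by activated T cells, and Cxcl12, the stromal ligand of Cxcr4, had 1 each, with scores of 9.26 and 7.38. Around all members there were 74 distinct summits of replicate 2 alone and none of replicate 1 alone. Their median score was 8.31, against 12.3 for the replicate 2 scores of the 19 shared summits.

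No summit of either list lay within 20 kb of 12 ligands. They include Ccl19 and Ccl21a, the lymph node ligands of Ccr7, Ccl20, the ligand of Ccr6, Cxcl13, the ligand of Cxcr5, and Ccl3 and Ccl4, inflammatory ligands. The 6 members in the Ccl27, Ccl21 and Ccl19 region of chromosome 4 (Ccl27a, Ccl21d, Ccl21b, Ccl27b, Ccl19 and Ccl21a) were all among them, and the nearest replicate 2 summits lay 24580 to 428233 bp away. This region holds near-identical gene copies, whose reads an aligner cannot always place, and the read filter used is not given in the sources used here. Its part in the missing summits was not tested. Ccl21b is listed with a span of 83706 bp and Ccl4 with one of 16060 bp that overlaps Ccl3, so their windows are wider than the usual small chemokine gene. The 6 members from Ccl2 to Ccl1 on chromosome 11 had 1 shared and 3 replicate 2 summits in 164 kb of joined windows. The 5 members from Cxcl5 to Cxcl2 on chromosome 5 had 0 shared and 3 replicate 2 summits in 138 kb.

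The scores of the 19 distinct shared summits lay within the range of shared summits elsewhere. Their median percentile was 48.3 in replicate 1 and 81.0 in replicate 2, against 58.3 and 81.0 for all shared summits of the numbered chromosomes. Around receptors the scores ran from 3.45 to 38.3 in replicate 1 and from 5.21 to 57.9 in replicate 2. Around ligands they ran from 4.17 to 9.69 in replicate 1 and from 6.49 to 38.7 in replicate 2. The median percentiles were 58.3 and 81.3 for the 14 receptor summits and 40.5 and 51.4 for the 5 ligand summits. For 11 of the 14 receptor summits and 3 of the 5 ligand summits, the nearest coding gene was a member.

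**Figure D3:**
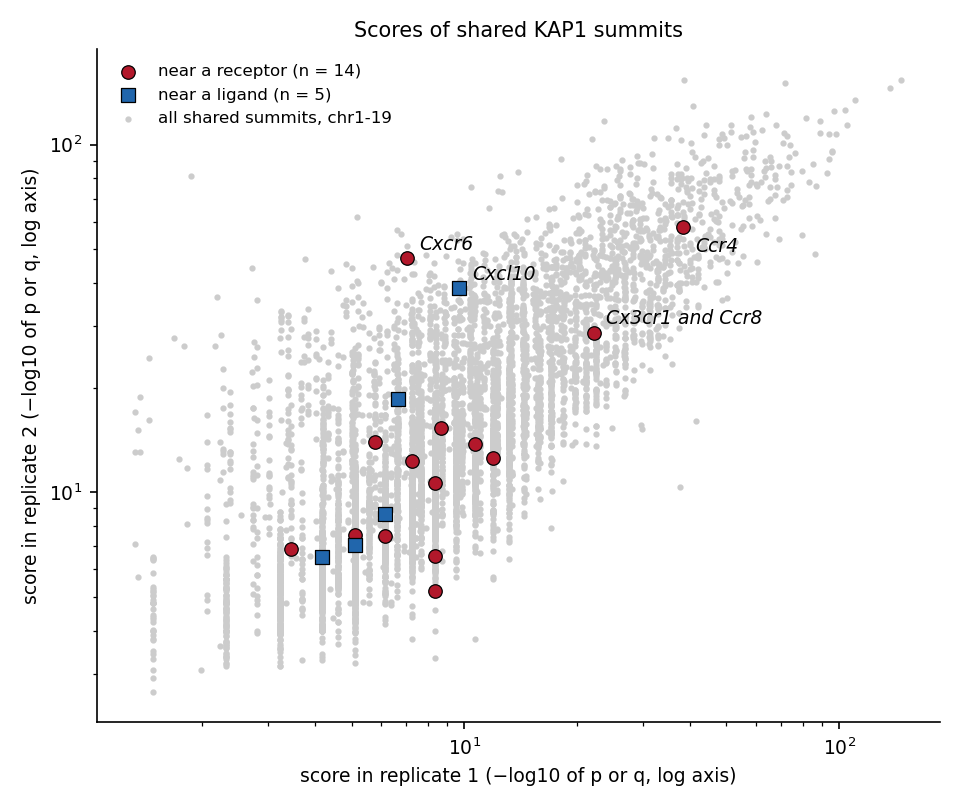
Score of each shared summit in replicate 2 against its score in replicate 1 (−log10 of p-values or q-values, log axes). Red circles are the 14 summits near receptors, blue squares the 5 near ligands and grey points all 7641 shared summits of chromosomes 1 to 19; the Ccr4 site stands at 38.3 and 57.9, the Cxcr6 site at 7.03 and 47.1, and the Cxcl10 site at 9.69 and 38.7.

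Receptors also lay nearer to a shared summit than ligands did when the window was set aside. The median distance from the gene to the nearest shared summit was 17713 bp for receptors and 116958.5 bp for ligands, against 55758 bp for all coding genes. The middle part of the distribution, from the lower to the upper quartile, ran from 5962 to 32844 bp for receptors and from 28530.8 to 338438 bp for ligands. The ligand farthest from a shared summit was Ccl28 at 2362649 bp. For replicate 2 summits the medians were close together, at 6701 bp for receptors and 7601 bp for ligands, against 0 for all coding genes, of which 11122 had a replicate 2 summit inside the gene. A summit inside the gene gives a distance of 0, and median lengths differ (7253 bp for receptors, 4004.5 bp for ligands, 17578.5 bp for all coding genes). Distances were not set beside those of genes of like length.

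**Figure D4:**
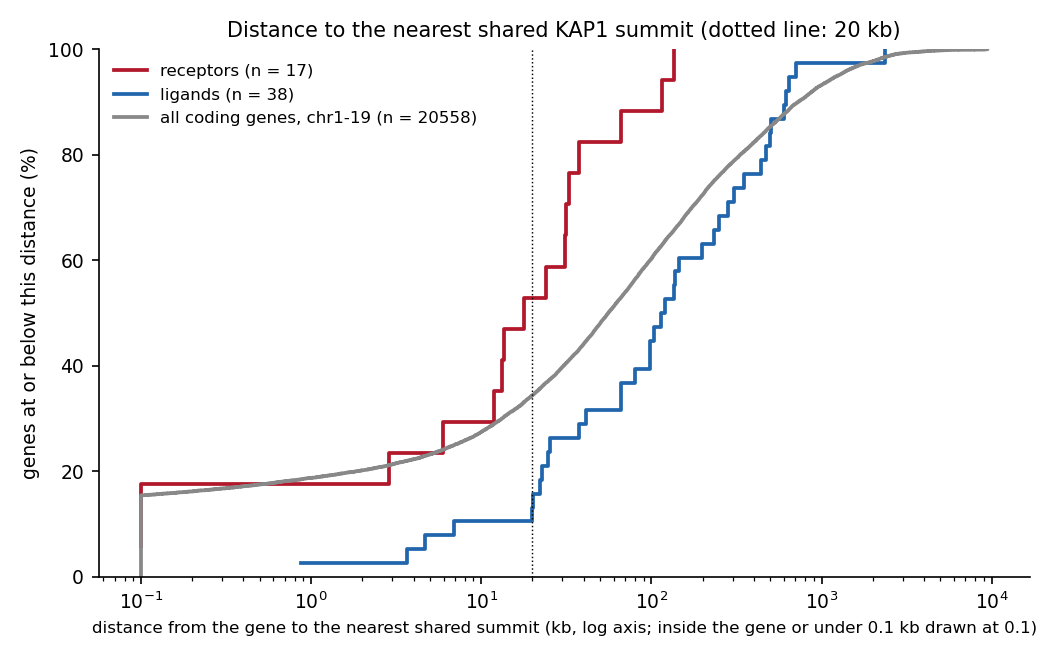
Cumulative share of genes (%) by distance to the nearest shared summit (kb, log axis, with summits inside the gene drawn at the left edge), for receptors, ligands and all coding genes. At the dotted line of 20 kb the receptor curve stands at 52.9%, the ligand curve at 13.2% and the curve of all coding genes at 34.4%.

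Promoter composition was set beside these counts because end summits were uneven across it. A promoter window was listed for 13 receptors, 28 ligands and 16457 coding genes in all. For the others, among them Ccr7, Ccr10, Cxcr5, Ccl5 and Cxcl17, no start is given here. The window held a median of 3 CG dinucleotides in receptors (range 1 to 20) and 6 in ligands (2 to 52), against 15 in all coding genes, taking the highest count where a gene had several starts. Coding genes were split into 3 classes of similar size by this count. In the lowest class, with 0 to 7 CG, 2.78% had a shared summit at an end, against 12.3% in the middle class (8 to 22) and 12.2% in the highest (23 to 67). With replicate 2 summits these shares were 11.1%, 29.9% and 29.98%. Of the members, 11 of 13 receptors and 16 of 28 ligands fell in the lowest class, against 34.96% of all coding genes. The part of composition in the end counts of members was not tested. The letters TATAAA, on either strand, were present in 2 of 13 receptor windows, 10 of 28 ligand windows and 15.0% of coding genes.

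A CG-rich and a CG-poor receptor promoter and that of Cxcl10 are shown, each as the 250 bases before the listed start, with every CG in capitals (RefSeq, GRCm38.p6). Cxcr4 (chr1:128592300-128592549, minus strand) has 19, and its 300-base window the highest count of the receptors. Ccr8 (chr9:120091883-120092132, plus strand) has 1, and Cxcl10 (chr5:92348890-92349139, minus strand), the ligand with the strongest shared summit, has 5:
Cxcr4: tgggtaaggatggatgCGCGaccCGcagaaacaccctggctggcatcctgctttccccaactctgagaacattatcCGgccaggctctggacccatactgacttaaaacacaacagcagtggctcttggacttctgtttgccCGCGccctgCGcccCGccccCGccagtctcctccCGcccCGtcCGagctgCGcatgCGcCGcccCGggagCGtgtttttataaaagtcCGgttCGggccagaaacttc
Ccr8: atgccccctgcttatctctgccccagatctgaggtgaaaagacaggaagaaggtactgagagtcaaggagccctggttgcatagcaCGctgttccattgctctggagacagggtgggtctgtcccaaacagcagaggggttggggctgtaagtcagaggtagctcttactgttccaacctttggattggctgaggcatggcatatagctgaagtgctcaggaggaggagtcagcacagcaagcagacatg
Cxcl10: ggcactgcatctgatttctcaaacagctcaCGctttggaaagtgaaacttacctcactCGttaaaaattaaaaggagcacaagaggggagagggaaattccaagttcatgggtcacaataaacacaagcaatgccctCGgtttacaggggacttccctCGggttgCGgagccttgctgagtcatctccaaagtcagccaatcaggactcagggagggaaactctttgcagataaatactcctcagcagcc

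**Figure D5:**
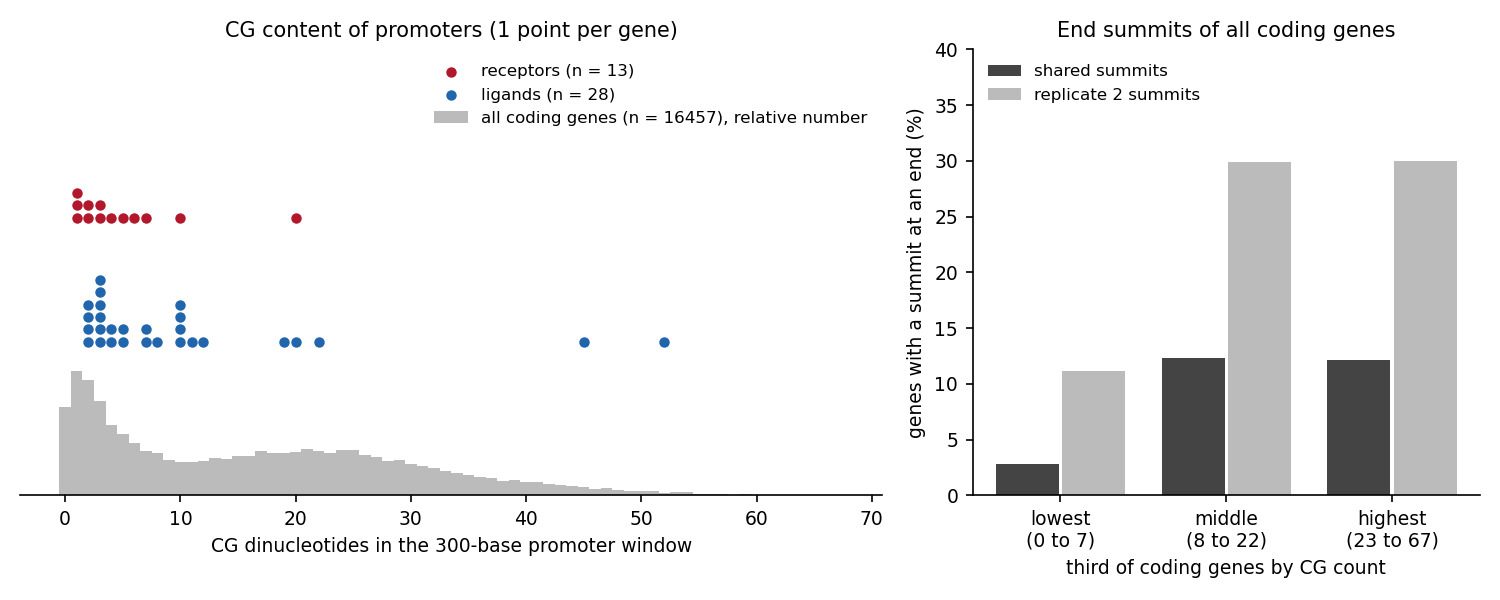
Left, CG dinucleotides in the 300-base promoter window, 1 point per receptor (13) and ligand (28), above the distribution over 16457 coding genes. Right, share (%) of coding genes with a shared or a replicate 2 summit at an end by class of CG count; the lowest class stands at 2.78% with shared summits, and 27 of the 41 members fall in it.

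Other genes of chemokine biology were counted from a list of 44 names, all of them found: 6 atypical or chemokine-like receptors and 38 others, which are G protein subunits, arrestins, kinases and migration genes together with S1pr1 and Klf2. Of the 44, 8 had a shared summit at an end (18.2%), 19 of 43 in the body (44.2%) and 28 within 20 kb (63.6%), against 8.99%, 13.0% and 34.4% of all coding genes. These genes are long, with a median of 38348.5 bp. Among the 7092 coding genes between the lower and upper quartile of their lengths (19132 to 88425 bp), the shares were 10.4%, 16.8% and 39.3%. The shares of the 44 also include listed genes outside this range, such as Klf2 (2593 bp) and Tiam1 (358490 bp), so length is matched only in part. The list was chosen with earlier results of these data known. The 38 other genes, with a median length of 51768 bp, held all 8 of the end summit genes and all 28 of the genes with a shared summit within 20 kb. None of the 6 atypical or chemokine-like receptors (Ackr1, Ackr2, Ackr3, Ackr4, Ccrl2 and Cmklr1) had a shared summit within 20 kb. They are shorter, with a median length of 12233 bp. Each had at least 1 summit of replicate 2 there, as did 37 of the 38 other genes and 84.8% of all coding genes.

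The strongest shared end summits of the signalling list lay at Gna13, Arrb2, Pik3cg, Rap1b, Pik3cd and Pik3r5. Gna13, the alpha subunit of G13, had one 892 bp inside its end (scores 13.2 and 21.95), and Arrb2, the arrestin that takes activated receptors out of signalling, had one 362 bp outside (12.2 and 17.3). Pik3cg, the catalytic subunit of the lipid kinase PI3K gamma that G protein-coupled receptors activate, had one 32 bp inside (10.5 and 37.2). Pik3r5, its regulatory partner, had one 168 bp outside (9.50 and 11.1), and Pik3cd, the delta catalytic subunit, had one 661 bp outside (13.4 and 10.2) with 4 more in its body. Rap1b, a small GTPase of integrin activation, had one 814 bp inside (11.9 and 14.7). Gnai2, the inhibitory G protein subunit that most chemokine receptors use, had 1 shared summit in its body and none at an end. S1pr1, the receptor for exit from lymph nodes, had 1 shared summit within 20 kb, and Klf2, the transcription factor that controls it, had none.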

How the data were processed

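The data are KAP1 ChIP-seq of 2 samples of cultured mouse regulatory T cells, and 2 inputs were not analysed here. DNA was sheared by sonication before precipitation, per the labels. Per the submitters' processing notes, Bowtie2 2.2.9, Picard 2.1.1 and MACS2 2.2.1 were used on mm10, whose chromosome coordinates are those of GRCm38. For settings, control, threshold and filters, nothing is stated in the labels or the lists. The deposited lists give 1 summit per line with a −log10 p-value or q-value as score, and replicates were not pooled. Depth is unknown.

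Genes and their outer bounds came from the RefSeq table of GRCm38.p6, and starts, strands and promoter sequences from a RefSeq promoter table, which listed 41 of the 55 members. Rows that follow a backward jump of position within a chromosome were treated as unplaced. Summits were counted with Python 3.11.15, pandas 2.3.3, NumPy 2.4.6 and SciPy 1.17.1, and positions are 1-based. The counting was tested on simulated summits: all 150 shared ones planted in each of 3 locations were found among 20558 genes, with 0 in a wrong location. They were planted only at longer genes far from other coding genes, with end summits at the lower end. Short, clustered or overlapping genes, as many members are, were not tested in this way.

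The members, the lists and the descriptions were chosen with earlier results of these data known. Named were the receptors (1 is counted but not reported here), every ligand with a shared summit within 20 kb, 12 ligands fixed by name, and up to 6 signalling genes by end summit rank besides 3 fixed by name. Ligands with only replicate 2 summits beyond those, the TGAGTCA motif, the classes of CG count and the promoters of Cxcr4, Ccr8 and Cxcl10 were chosen after their values were seen. The alternatives were other shared distances, score limits, single lists, merged summits, other windows, listed starts, whole genes as bodies, loci in place of genes and genes of like length.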

Additional observations from a re-analysis of the deposited data

How the results depend on the processing

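The order of receptors above ligands in the share with a shared summit within 20 kb held in each alternative run, but it was narrow with replicate 2 alone (12 of 17 against 26 of 38). No paired analysis was possible because the result comes from no test between groups. Leaving out either replicate gave 1 to 3 receptors, 1 to 2 ligands and 2034 to 4804 coding genes with an end summit, 2 to 4, 0 to 5 and 2537 to 10368 with a body summit, and 9 to 12, 5 to 26 and 7414 to 17423 within 20 kb. The summits per 100 kb were then 1.803 to 5.54 around receptors, 0.338 to 3.38 around ligands and 0.561 to 4.03 around coding genes. With only as many of the highest-scoring replicate 2 summits as replicate 1 has, 0 receptors and 830 coding genes had an end summit, 1170 coding genes a body summit, and 5 receptors, 2 ligands and 3873 coding genes one within 20 kb, with 0.515 per 100 kb around receptors and 0.204 around coding genes. With scores at or above the medians, 0 ligands and 1076 coding genes had an end summit, 1477 coding genes a body summit and 1 ligand one within 20 kb, with 0.901, 0.0675 and 0.272 per 100 kb around receptors, ligands and coding genes. With a shared distance of 50 bp, 0 ligands had an end summit and 3 one within 20 kb, with 0.454 per 100 kb around coding genes, and merged summits gave 0.475. End windows of 500 bp held 0 receptors and 0 ligands, and listed starts alone 0 ligands. Windows of 10 kb held 5 receptors (29.4%) and 4 ligands (10.5%), against 27.5% of coding genes, and windows of 50 kb 14 receptors (82.4%) and 12 ligands (31.6%), against 48.1%. Coding genes in the length range of receptors had body summits in 537 of 9112 cases. For each value that changed, beyond fewer or more summits entering the count, the cause was not tested. The end and body counts of members are so small that 1 gene decides them.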
